A study of Sus scrofa with 8 samples.

Results

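The mevalonate pathway up to squalene was followed at the level of messenger RNA in the liver of male Landrace x Large White pigs before and after a steatotic diet. The genes were ACAT2, HMGCS1, MVK, PMVK, MVD, IDI1, FDPS, GGPS1 and FDFT1, found by their symbols and taken in the order of their reactions. The symbols of 8 of these 9 genes were present among the 18103 rows of the expression table, and all 8 passed the filter on low values that left 13175 genes for testing. IDI1 was not found by its symbol. A row named LOC100625049 is described in the table as isopentenyl-diphosphate Delta-isomerase 1, the IDI1 product, and is given beside the members and outside their count.

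Hepatic RNA was sequenced in 8 libraries, each from a pool of 2 pigs. In the initial state (the libraries labelled Control) the condition is given as healthy, the pigs were 4 months old and the liver was sampled by laparotomy biopsy. In steatosis the same animals had received for 2 months a diet rich in saturated fat, fructose, cholesterol and cholate and poor in methionine and choline, were 6 months old, and the liver was taken after euthanasia. Each state had 4 pools, numbered 1 to 4, and all animals had fasted overnight. No pigs of 6 months on the control diet were among the libraries analysed here, so the diet cannot be told apart from 2 months of age and from the way of sampling. Replicates are pools, and every SD is therefore a spread of pools rather than of pigs. In bulk tissue, fewer cells of a type and less RNA per cell cannot be told apart. Values are FPKM, fragments scaled to transcript length and to the mapped fragments of the library, which are per length and may therefore be set beside each other across genes.

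The mevalonate pathway builds isoprenoids from acetyl-CoA. Thiolase and HMG-CoA synthase assemble the carbon skeleton, the kinases MVK and PMVK and the decarboxylase MVD turn mevalonate into isopentenyl diphosphate, and IDI1 interconverts it with dimethylallyl diphosphate. FDPS joins these units to farnesyl diphosphate, from which FDFT1 makes squalene for cholesterol, while GGPS1 leads to geranylgeranyl diphosphate for the lipid modification of proteins. In liver these genes are known targets of the transcription factor SREBP-2, which is held inactive when sterols are plentiful.

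Initial pool 1 and steatosis pool 1 stood apart from their groups. Genes of skeletal muscle summed to 2816 FPKM in initial pool 1 and to at most 21 FPKM in the other 7 libraries, and genes of stomach mucosa to 2218 FPKM and at most 40.1 FPKM. The defining hepatocyte genes were high in every library, with sums of 66393 to 98671 FPKM in the initial state and 58311 to 69277 FPKM in steatosis, and none of these 11 genes was at 0. Macrophage markers summed to 1098 to 1395 FPKM and 1447 to 1673 FPKM, with 2 of 12 called higher, and markers of biliary and stellate cells to 56.2 to 189 FPKM and 103 to 281 FPKM, with 1 of 9 called higher. Their part in the results was not tested. Relative depth, read from the steps between low values, lay between 92.3% and 100% of the deepest library. Genes were called different with limma on log2(FPKM + 0.1) when the Benjamini-Hochberg adjusted p was under 0.01 and the log2 fold change was above 1 or under -1, fold changes being steatosis minus initial state. Each fold change is a difference of group means on this log scale, not the log of the ratio of the mean FPKM beside it. For lower genes in which steatosis pool 1 lay far above its group, it is larger in size than that ratio. Over all tested genes 792 were called higher and 44 lower, and the median log2 fold change was 0.25, so the members are to be read against this shift.

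By these limits 4 of the 8 members were lower in steatosis, namely ACAT2, HMGCS1, MVK and FDPS, and none was higher. Among all tested genes 0.334% were called lower and 6.01% higher. No member had a positive fold change with an unadjusted p under 0.05 in limma, where 37.8% of all genes did and 4.13% had a negative one. With the looser limit of an adjusted p under 0.05 and any negative fold change, 7 of 8 members qualified, GGPS1 being the exception, against 2.28% of all genes. The median log2 fold change of the members was -1.26. The summed FPKM of the 8 members was 289, 355, 273 and 347 in initial pools 1 to 4 and 224, 118, 108 and 120 in steatosis pools 1 to 4. All steatosis sums were below all initial sums, and pool 1 of steatosis was nearer to the initial state than the other 3. Steatosis pool 1 was the highest of its group in 7 of the 8 members, where 28.5% of all genes had this order, so each member is given with and without that library. Because that library was singled out by values of these same genes, the estimates and p values without it are a description and no further test.

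**Figure D1:**
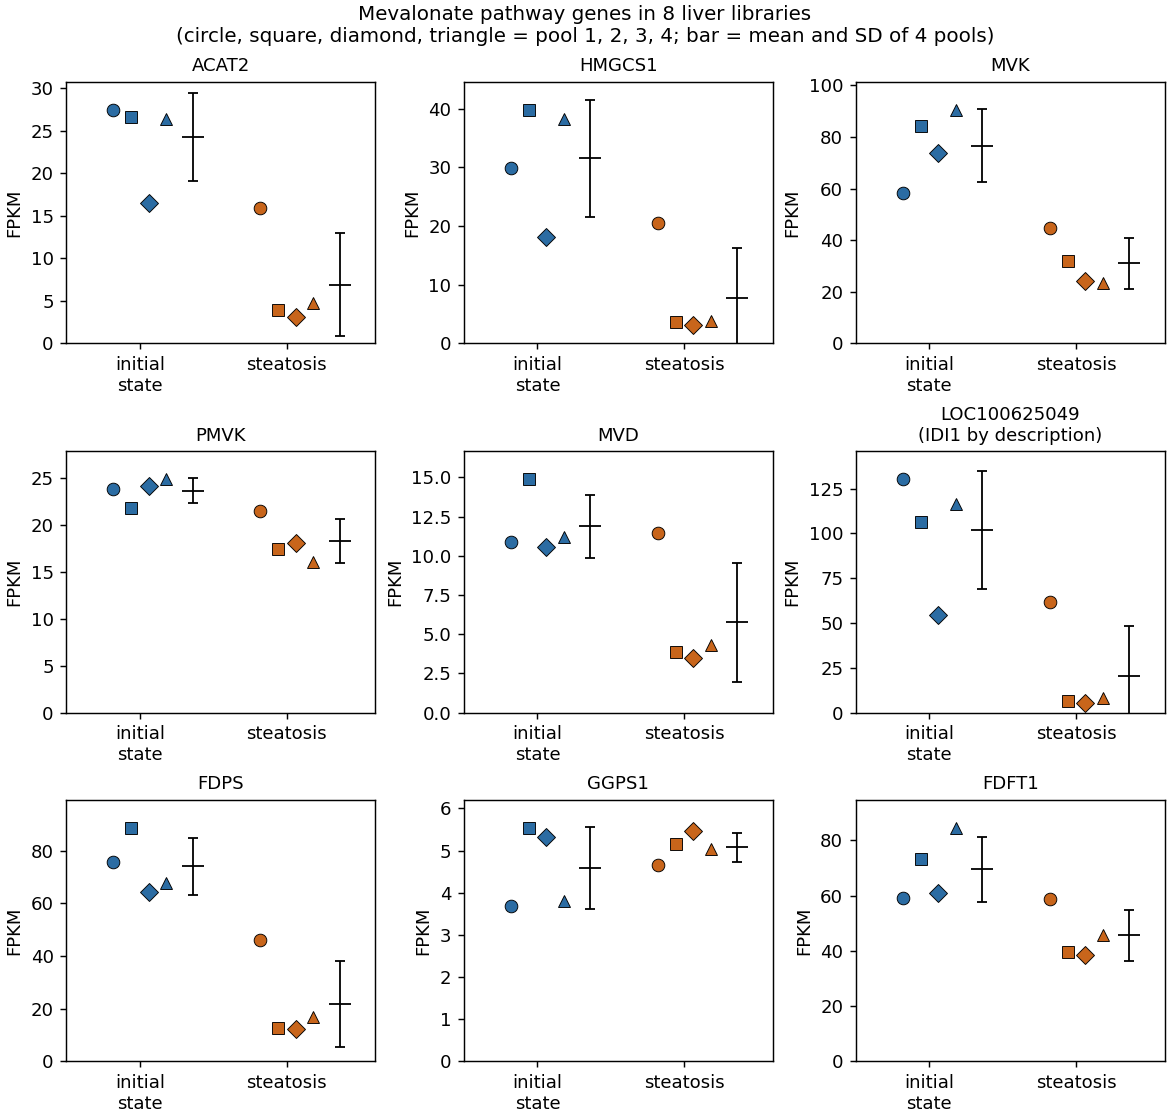
FPKM (vertical axes, from 0) of the 8 members and of LOC100625049 in the 4 pools of the initial state (blue) and of steatosis (orange), in pathway order; marker shapes are pool numbers, and bars are the mean and SD of 4 pools, drawn from 0 where the SD exceeds the mean. Steatosis pool 1 (circle) lies above the other steatosis pools in every panel except that of GGPS1, whose values overlap between states.

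The entry into the pathway was lower in steatosis. ACAT2, the cytosolic thiolase that joins acetyl-CoA units (gene 100152303, chromosome 1, 7600616 to 7612861 in Sscrofa11.1, the build of all positions given here), measured 27.45, 26.64, 16.54 and 26.39 FPKM in pools 1 to 4 at the initial state and then 15.89, 3.95, 3.16 and 4.73 FPKM in the same order of pools in steatosis. The groups did not overlap, although steatosis pool 1 came just under initial pool 3. The mean fell from 24.3 ± 5.16 to 6.93 ± 6.01 FPKM (SD, n = 4 pools each), and the log2 fold change was -2.08 (standard error 0.43, adjusted p = 0.00659 from limma). Without steatosis pool 1 the log2 fold change was -2.58 (standard error 0.21, adjusted p = 0.000162), and the remaining 3 pools averaged 16.3% of the initial mean.

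HMGCS1, the cytosolic HMG-CoA synthase (gene 100524223, chromosome 16, 27936225 to 27957261), measured 29.96, 39.75, 18.10 and 38.27 FPKM at the initial state and then 20.54, 3.60, 3.11 and 3.88 FPKM in steatosis. Steatosis pool 1 exceeded initial pool 3, so the groups overlapped, and the means gave, in an exact two-sided permutation test, p = 0.0571, where the smallest p that 4 pools against 4 allow is 0.0286. The exact tests here leave the pool numbers out of account, and over 4 pairs of pools the smallest p would be 0.125. In limma the log2 fold change was -2.44 (standard error 0.54, adjusted p = 0.00903). Steatosis pools 2, 3 and 4 held 11.2% of the initial mean, the lowest share among the members found by symbol, and without pool 1 the log2 fold change was -3.06 (standard error 0.26, adjusted p = 0.000186). The call with all 8 pools was close to its limit for both genes. HMGCS1 kept it in 1 of 8 fits that left out a library in turn, the fit without steatosis pool 1, and ACAT2 in 2, those without initial pool 3 and without steatosis pool 1. None of the fits that left out a library, here or for the genes below, used the pool number. With all 8 pools and the pool number as a block, both genes were called in limma (adjusted p = 0.00276 for ACAT2 and 0.00663 for HMGCS1).

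ACAT1, the mitochondrial thiolase, which serves ketone body metabolism, was not called. It averaged 114 ± 5.45 FPKM in the initial state and 127 ± 0.936 FPKM in steatosis (log2 fold change 0.15, adjusted p = 0.147 from limma). The ratio of ACAT2 to ACAT1 within a library, which no scaling between libraries alters, was 0.152 to 0.25 in the initial state and 0.127, 0.0312, 0.0247 and 0.0373 in steatosis pools 1 to 4. These ranges did not overlap (exact permutation p = 0.0286, the smallest possible, and 0.0643 adjusted over the 9 ratios computed in all, which were chosen after values were seen).

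Of the kinases that act on mevalonate, MVK was called lower and PMVK was not. MVK, mevalonate kinase (gene 100152230, chromosome 14, 41320790 to 41357437), measured 58.10, 84.42, 73.68 and 90.42 FPKM at the initial state and then 44.70, 31.98, 24.24 and 23.48 FPKM in steatosis. No steatosis pool reached the lowest initial pool, and pool 1 was less far from its group than in the genes above. Its mean level fell, from 76.7 ± 14.2 to 31.1 ± 9.85 FPKM, giving a log2 fold change of -1.33 (standard error 0.21, adjusted p = 0.00187) and of -1.52 (standard error 0.17, adjusted p = 0.000809) without steatosis pool 1. MVK was called in each of the 8 fits that left out a library, and was the only member of which this held.

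PMVK, phosphomevalonate kinase (gene 100152301, chromosome 4, 94861500 to 94913743), measured 23.74, 21.75, 24.14 and 24.82 FPKM before the diet and 21.50, 17.38, 18.05 and 16.07 FPKM after it. The groups did not overlap (exact permutation p = 0.0286), but the difference was small, from 23.6 ± 1.32 to 18.2 ± 2.32 FPKM. Its log2 fold change was -0.38 (standard error 0.11, adjusted p = 0.0259), and -0.46 (standard error 0.10, adjusted p = 0.0124) without steatosis pool 1, short of both limits. The last 113 bp of the annotated gene overlap KCNN3, a potassium channel gene whose level was 0.122 ± 0.0222 and 0.443 ± 0.111 FPKM, far below that of PMVK.

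MVD, mevalonate diphosphate decarboxylase (gene 110260885, chromosome 6, 1008100 to 1014303), gave the clearest case of a value that rested on a single library. The initial pools held 10.89, 14.88, 10.54 and 11.20 FPKM and the steatosis pools 11.45, 3.85, 3.46 and 4.32 FPKM. Steatosis pool 1 lay within the initial range, at 96.4% of the initial mean, while the other 3 steatosis pools averaged 32.6% of it. With all pools the log2 fold change was -1.20 (standard error 0.33, adjusted p = 0.0234) and MVD was not called. Without steatosis pool 1 it was -1.58 (standard error 0.15, adjusted p = 0.000355) and MVD was called, which brought the members called lower to 5 of 8, where 0.334% of all genes were called lower in that fit too.

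The isomerase row spanned the widest range. LOC100625049 (chromosome 10, 68534520 to 68539279) measured 130.20, 106.39, 54.62 and 116.45 FPKM at the initial state and then 61.95, 6.29, 5.19 and 7.99 FPKM in steatosis. It held the highest mean of the 9 genes in the initial state, 102 ± 33 FPKM, and steatosis pool 1 exceeded initial pool 3. The log2 fold change was -3.09 (standard error 0.68, adjusted p = 0.00906 from limma), while the exact permutation test gave p = 0.0571. Without steatosis pool 1 it was -3.90 (standard error 0.29, adjusted p = 0.000118), the remaining pools averaging 6.49 ± 1.41 FPKM (SD, n = 3), or 6.37% of the initial mean. The call was lost in 7 of the 8 fits that left out a library, with adjusted p values from 0.0119 to 0.0283, and was kept in the fit without steatosis pool 1.

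At the branch point, FDPS was called lower and GGPS1 was not. FDPS, farnesyl diphosphate synthase (gene 100153932, chromosome 4, 94500140 to 94514820), measured 75.67, 88.68, 64.31 and 67.56 FPKM at the initial state and then 46.18, 12.52, 12.20 and 16.63 FPKM in steatosis. The groups did not overlap, and its mean fell, 74.1 ± 10.9 FPKM before and 21.9 ± 16.3 FPKM after the diet (log2 fold change -1.98, standard error 0.37, adjusted p = 0.00377). Without steatosis pool 1 the log2 fold change was -2.42 (standard error 0.15, adjusted p = 5.52e-05), with 18.6% of the initial mean left. FDPS was called in 3 of the 8 fits that left out a library, those without initial pool 1, initial pool 3 and steatosis pool 1.

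GGPS1, geranylgeranyl diphosphate synthase (gene 100739526, chromosome 14, 55907885 to 55924037), was the member of lowest level before the diet. It measured 3.69, 5.54, 5.31 and 3.81 FPKM at the initial state and then 4.65, 5.15, 5.46 and 5.03 FPKM in steatosis, and every steatosis value lay within the initial range. Its log2 fold change was 0.16 (95% interval -0.18 to 0.51, adjusted p = 0.446), so a change beyond the limit of 1 in either direction lay outside the interval. The sign depended on scaling, since the estimate was -0.10 with libraries scaled by their median ratio and -0.07 with upper quartiles. Within a library the ratio of FDPS to GGPS1 was 12.1 to 20.5 in the initial state and 9.93, 2.43, 2.23 and 3.31 in steatosis pools 1 to 4 (exact permutation p = 0.0286, 0.0643 adjusted over 9 ratios).

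FDFT1, squalene synthase (gene 100312971, chromosome 14, 14976259 to 15010701), measured 59.12, 73.45, 60.83 and 84.60 FPKM at the initial state and then 58.70, 39.72, 38.33 and 45.58 FPKM in steatosis. Steatosis pool 1 fell just below initial pool 1, so that the groups were separate by a narrow margin. Means were 69.5 ± 11.9 and 45.6 ± 9.29 FPKM, a log2 fold change of -0.61 (standard error 0.16, adjusted p = 0.0189) with all pools and -0.74 (standard error 0.14, adjusted p = 0.00802) without steatosis pool 1. FDFT1 thus stayed within the limit of 1 in both fits and was not called. The ratio of FDPS to FDFT1, consecutive enzymes, was 0.799 to 1.28 in the initial state and 0.787, 0.315, 0.318 and 0.365 in steatosis pools 1 to 4 (exact permutation p = 0.0286, 0.0643 adjusted over 9 ratios).

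**Figure D2:**
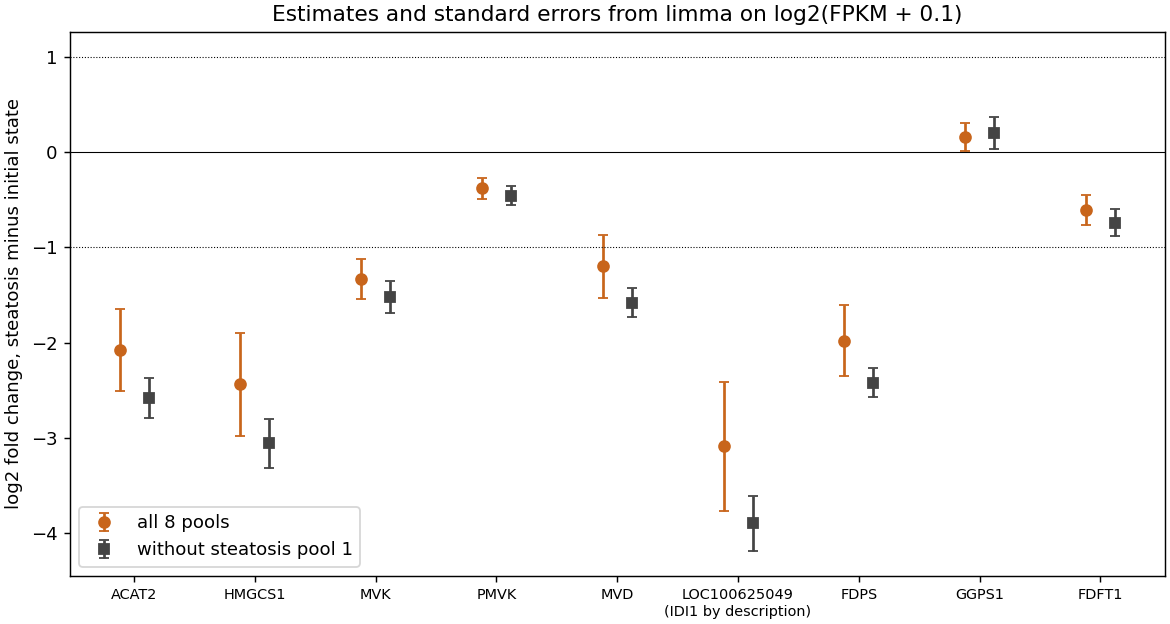
Log2 fold change of each gene (vertical axis, steatosis minus initial state) in pathway order, with its standard error, from all 8 pools (orange circles) and without steatosis pool 1 (grey squares); dotted lines mark the limits of 1 and -1. PMVK, GGPS1 and FDFT1 stayed within the limits in both fits, and LOC100625049 lay lowest at -3.09 and -3.90.

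The estimated size of the difference had no steady order from the start of the pathway to its end. PMVK, which acts between HMGCS1 and the isomerase, was at 72.7% of its initial mean in steatosis pools 2, 3 and 4, and FDFT1, the last enzyme before squalene, was at 59.3%. Differences in size between genes were also read as ratios within a library, tested with steatosis pool 1 included, which the shares above leave out. The ratio of HMGCS1 to PMVK was 0.75 to 1.83 in the initial state and 0.955, 0.207, 0.172 and 0.241 in steatosis pools 1 to 4 (exact permutation p = 0.0571, 0.0857 adjusted over 9 ratios), and the ratio of LOC100625049 to MVD gave the same p values. For MVD to PMVK and for HMGCS1 to ACAT2 the exact permutation p was 0.114 (0.129 adjusted), and for MVD to MVK it was 0.743 (0.743 adjusted). None of the 9 ratios had an adjusted p under 0.05. The smallest exact p possible, 0.0286, limits how low the adjusted values can go, so this does not show that the sizes were alike.

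The order of mean levels also differed between the states. In the initial state LOC100625049 (102 FPKM), MVK (76.7 FPKM), FDPS (74.1 FPKM) and FDFT1 (69.5 FPKM) came first, and each overlapped its neighbour in this order. HMGCS1, ACAT2 and PMVK followed with overlapping values of 31.5, 24.3 and 23.6 FPKM, and MVD (11.9 FPKM) and GGPS1 (4.59 FPKM) were separate from the genes above them. In steatosis pools 2, 3 and 4, FDFT1 had the highest level (41.2 FPKM), MVK came next (26.6 FPKM), and PMVK (17.2 FPKM) overlapped FDPS (13.8 FPKM). LOC100625049 (6.49 FPKM) overlapped GGPS1 (5.21 FPKM), and below these ACAT2 (3.95 FPKM), MVD (3.88 FPKM) and HMGCS1 (3.53 FPKM) overlapped in this order. GGPS1, the lowest of the 9 before the diet, was thus above ACAT2, MVD and HMGCS1 in those 3 pools.

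**Figure D3:**
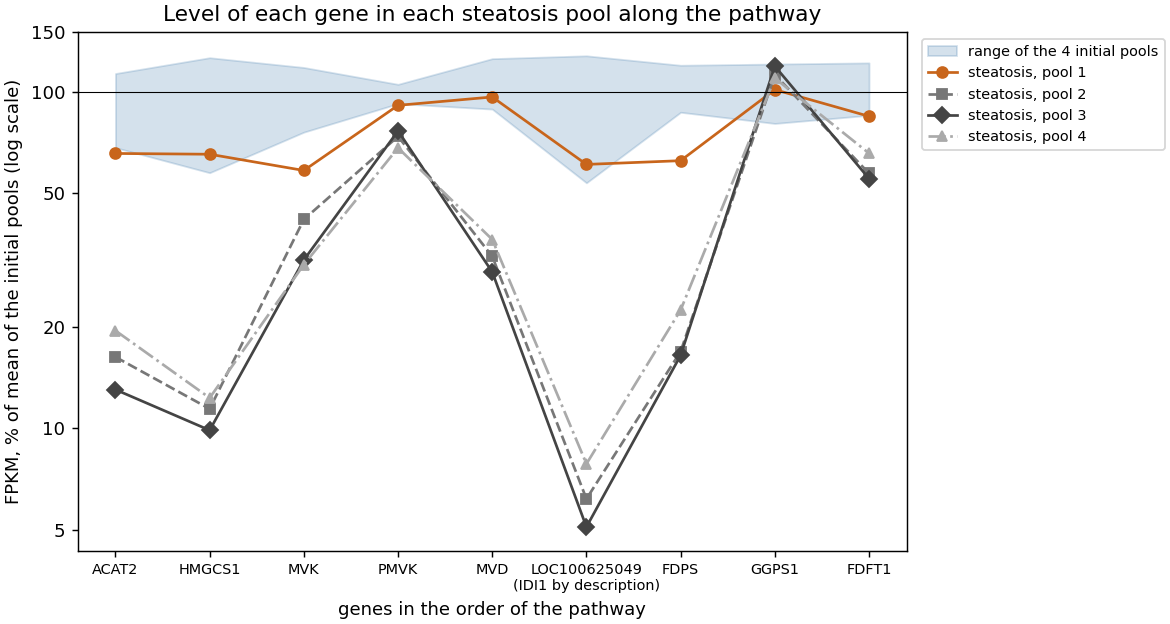
Level of each gene in each steatosis pool as a percentage of the mean of the 4 initial pools (vertical axis, log scale), in pathway order, with the range of the initial pools shaded. Pools 2, 3 and 4 run close together and dip at HMGCS1 and LOC100625049, whereas pool 1 stays between 58.3% (MVK) and 101% (GGPS1).

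Across pools of the same number, the decrease was present in pools 2, 3 and 4 for all members except GGPS1. The log2 ratio of steatosis to the initial state was -2.72, -2.35 and -2.46 for ACAT2 in pools 2, 3 and 4 and -0.78 in pool 1. For HMGCS1 it was -3.43, -2.50 and -3.27, and -0.54 in pool 1. For MVD the values were -1.92, -1.58 and -1.35, and 0.07 in pool 1. Pool 1 thus showed the same sign with a smaller size for the first pair of enzymes and no decrease for MVD. FDFT1 had log2 ratios of -0.89, -0.66 and -0.89 in pools 2, 3 and 4 and -0.01 in pool 1. GGPS1 had 0.33, -0.10, 0.04 and 0.39 in pools 1 to 4, with no common sign.

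All steatosis pools lay below all initial pools for 5 of the 8 members, ACAT2, MVK, PMVK, FDPS and FDFT1, as they did for 2.53% of all genes. With steatosis pools 2, 3 and 4 alone this held for 7 of the 8, adding HMGCS1 and MVD, against 3.63% of all genes. The place of steatosis pool 1 was expressed as its distance, on the log2 scale, from the mean of the other 3 steatosis pools (0%) towards the mean of the initial pools (100%). It was 50.2% for MVK, 69.3% for FDFT1, 71.0% for PMVK, 72.4% for FDPS, 77.6% for ACAT2, 82.0% for HMGCS1, 83.5% for LOC100625049 and 97.6% for MVD. Each of these genes was therefore at or beyond the middle of the way to the initial state in that library. The same measure had a median of 44.9% over the 44 genes called lower without steatosis pool 1, of which 19 lay above 50%. These 44 include 5 members, LOC100625049 and 9 genes of sterol synthesis after squalene, so they are no separate yardstick for the members. Over the 666 genes called higher without that pool the median was 4.79%, so this library resembled its group in genes that rose. Its summed hepatocyte markers, 58845 FPKM, lay within the 58311 to 69277 FPKM of steatosis pools 2, 3 and 4. Its summed macrophage markers, 1447 FPKM, lay below the 1479, 1474 and 1673 FPKM of those pools. They were above the 1098 to 1395 FPKM of the initial pools.

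Sterol synthesis beyond squalene moved in the same direction. Of 12 genes found and tested, 6 were called lower and none higher, with a median log2 fold change of -1.26, and 10 were lower at an unadjusted p under 0.05 in limma while 0 were higher, against 4.13% and 37.8% of all genes. SQLE, squalene epoxidase and the next enzyme after FDFT1, went from 34.6 ± 6.89 to 5.12 ± 8.24 FPKM (log2 fold change -4.15, adjusted p = 0.00881), with 17.43 FPKM in steatosis pool 1 and 0.67, 0.38 and 2.01 FPKM in pools 2, 3 and 4. This fold change exceeds in size the ratio of the mean FPKM, because low values weigh more on the log scale. The demethylase CYP51 (-2.16, adjusted p = 0.00268), the isomerase EBP (-2.06, adjusted p = 0.000489), the reductase TM7SF2 (-1.79, adjusted p = 0.00157), the methyl sterol oxidase MSMO1 (-1.60, adjusted p = 0.00297) and the desaturase SC5D (-1.12, adjusted p = 0.00673) were the other 5. Without steatosis pool 1 the count was 9 of 12, these 6 included. That pool was the highest of its group in 11 of these 12 genes, as in 7 of the 8 members. The ratio of FDFT1 to SQLE, the enzymes that make and consume squalene, was 1.54 to 2.51 in the initial state and 3.37, 59.3, 101 and 22.7 in steatosis pools 1 to 4 (exact permutation p = 0.0286, 0.0643 adjusted over 9 ratios).

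The genes that use isoprenoids outside sterol synthesis, among them prenyltransferases and enzymes of dolichol and ubiquinone synthesis, held no called gene, as was the case for GGPS1. Of 19 tested, 0 had an unadjusted p under 0.05 in the lower direction and 5 in the higher direction in limma, where 37.8% of all genes were higher by that limit, and the median log2 fold change was 0.07, below the 0.25 of all genes. The lowest adjusted p values belonged to CHML, an escort protein of Rab prenylation (0.69, adjusted p = 0.0342), FNTB, a farnesyltransferase subunit (0.47, adjusted p = 0.0438), and PGGT1B, a subunit of protein geranylgeranyl transferase (0.34, adjusted p = 0.0953). On the supply side, 1 of 8 genes for acetyl-CoA and ketone bodies was called, ACACA, acetyl-CoA carboxylase, which was higher (1.19, adjusted p = 0.00193). The mitochondrial citrate carrier SLC25A1 (-0.83, adjusted p = 0.00378) and the acetyl-CoA synthetase ACSS2 (-0.72, adjusted p = 0.0318) did not pass the limit on size. The median of these 8 genes was -0.05.

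Among 13 genes of SREBP regulation and sterol uptake, 1 was called higher and 1 lower, with a median log2 fold change of 0.11. SREBF1, which encodes the SREBP that mainly drives fatty acid synthesis, was the higher one, at 7.8 ± 3.19 and 25.2 ± 9.31 FPKM (1.70, adjusted p = 0.00454). NPC1L1, an intestinal and hepatic sterol transporter, was the lower one (-2.02, adjusted p = 0.00496) and was not called without steatosis pool 1 (adjusted p = 0.0108). MYLIP, a ubiquitin ligase for lipoprotein receptors, had 0.86 (adjusted p = 0.00423), under the limit on size. SREBF2, which encodes SREBP-2, measured 19.65, 22.72, 18.12 and 19.45 FPKM at the initial state and then 18.96, 10.86, 10.26 and 13.14 FPKM in steatosis. Its log2 fold change of -0.62 (adjusted p = 0.029) did not pass, nor did that of -0.81 without steatosis pool 1 (adjusted p = 0.00329), which missed the limit on size. Steatosis pool 1 lay within the initial range, as it did for MVD.

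Targets of the liver X receptors, nuclear receptors that respond to oxysterols, differed in the opposite direction. Of 8 genes, 4 were called higher and none lower, and the median was 1.05. Higher calls made up 6.01% of all genes. At an unadjusted p under 0.05, 7 of the 8 were higher and 0 lower, against 37.8% and 4.13% of all genes. The 4 called genes, all called without steatosis pool 1 too, were SMPDL3A, a phosphodiesterase (3.42, adjusted p = 1.94e-05), and the sterol transporters ABCG1 (2.30, adjusted p = 0.000207), ABCA1 (1.69, adjusted p = 0.000181) and ABCG5 (1.17, adjusted p = 0.000662). In contrast to the pathway genes, steatosis pool 1 was like its group here in summed FPKM. The sum of the 8 targets was 217 in that pool, 191 to 227 in steatosis pools 2, 3 and 4 and 97.7 to 128 in the initial pools. NR1H3, which was not called, gave the largest part of it, 97.76 FPKM in steatosis pool 1. That pool was the highest of its group in 3 of the 8 targets and the lowest for ABCA1 (9.85 FPKM against 14.75, 14.37 and 10.2 FPKM).

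**Figure D4:**
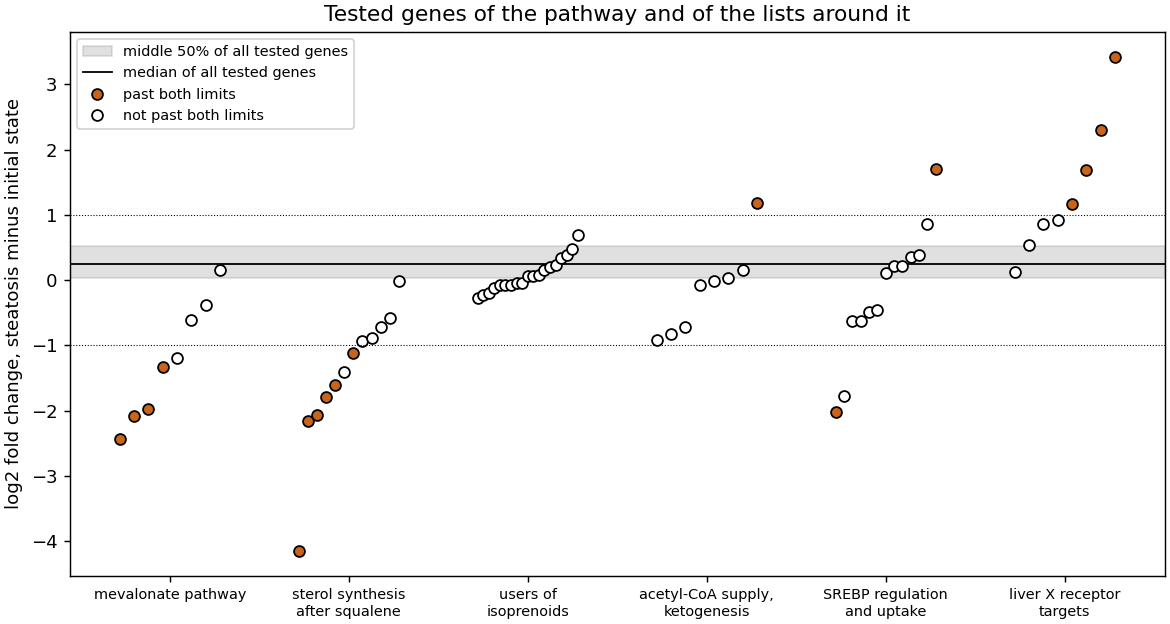
Log2 fold change (vertical axis, steatosis minus initial state) of each tested gene of the mevalonate pathway and of the lists around it; filled points passed both limits, and the line and band are the median (0.25) and the middle 50% of all tested genes. Genes of the pathway and of sterol synthesis after squalene lie mostly below the band, with medians of -1.26, and liver X receptor targets mostly above it, with a median of 1.05.

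The nearest protein-coding gene on each side of the members and of LOC100625049 was examined as well, after their values had been seen. Of 18 such neighbours 16 were tested, with a median log2 fold change of 0.26. None was called lower in limma, against 0.334% of all genes. In the lower direction 2 had an unadjusted p under 0.05, MMAB and WDR37, against 4.13% of all genes. MMAB, an enzyme of cobalamin metabolism, begins 149 bp after the end of MVK (chromosome 14, 41357587 to 41371374), and in the human genome it is known to lie head to head with MVK. It measured 12.14, 22.54, 17.18 and 22.31 FPKM at the initial state and then 17.06, 6.20, 4.98 and 5.47 FPKM in steatosis. Its log2 fold change was -1.28 (standard error 0.37, adjusted p = 0.0271) and, without steatosis pool 1, -1.69 (adjusted p = 0.00129), which passed both limits. WDR37, next to LOC100625049, had -0.72 (adjusted p = 0.0057). RUSC1, 146 bp from FDPS, had 0.24 (adjusted p = 0.188), and TCP1, which overlaps ACAT2 by 94 bp, had -0.14 (adjusted p = 0.393). CYBA, a NADPH oxidase subunit 908 bp from MVD, was called higher (1.70, adjusted p = 4.58e-06), as was KCNN3 beside PMVK (1.27, adjusted p = 0.0042), whose initial values were all under the filter limit of 0.3 FPKM. Without steatosis pool 1 KCNN3 was not called (adjusted p = 0.0159 from limma), while CYBA was. Among all genes 6.01% were called higher.

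**Figure D5:**
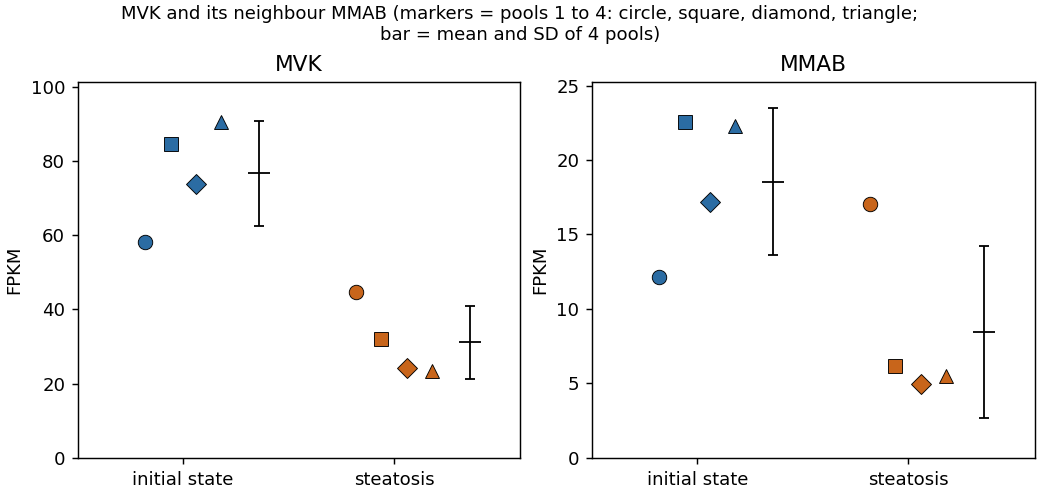
FPKM (vertical axes, from 0) of MVK and of its neighbour MMAB in the initial pools (blue) and steatosis pools (orange), with the mean and SD of 4 pools. In MMAB steatosis pool 1 (17.06 FPKM) lies within the initial range and the other 3 steatosis pools lie below it, whereas in MVK all 4 lie below it.

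The 10 genes whose profile over the 8 libraries was most like the mean standardised profile of the members were NSDHL, MSMO1, CYP51, SC5D, MMAB, PLIN5, SQLE, TM7SF2, SREBF2 and CIDEB, apart from genes not reported here. Their Pearson correlations ran from 0.989 for NSDHL to 0.957 for CIDEB over 8 libraries. These libraries share the contrast between states and the position of steatosis pool 1, so the correlations are a description. NSDHL, a sterol dehydrogenase, measured 48.15, 58.21, 48.69 and 56.25 FPKM at the initial state and then 38.01, 24.25, 24.84 and 25.09 FPKM in steatosis, the same order of pools 1 and 2 to 4 as the members. PLIN5, a lipid droplet protein, had the same order at a much smaller size, with a log2 fold change of -0.27 (adjusted p = 0.0451), and CIDEB, also a lipid droplet protein, had -0.65 (adjusted p = 0.00583).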

How the data were processed

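Poly-A RNA of 8 liver pools was read as 100 bp pairs on the DNBseq platform. The authors filtered the reads, mapped them with HISAT2 2.0.4 to Sus scrofa 11.1, assembled transcripts with StringTie and estimated expression with Bowtie2 2.2.5 and RSEM 1.2.12. The values were deposited as FPKM with no stated scaling between libraries. Another 4 comparisons of single pools hold the authors' fold changes and p-values and were not used. Whether counting used strand is not given in the sources used here.

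The filter kept 13175 genes that reached 0.3 FPKM in 4 or more libraries. For the comparison of states, log2(FPKM + 0.1) was fitted by limma 3.58.1 (R 4.3.3) using a trend of variance on the mean, and p was adjusted by Benjamini-Hochberg over all genes kept. The added 0.1 makes a fold change on this scale understate that of low genes. The fold change is a difference of mean log2 values and need not match the ratio of mean FPKM. The limits on the adjusted p (0.01) and on the log2 fold change (1) follow the study. Means of single genes and ratios were compared by two-sided exact permutation tests in Python 3.11.15 with scipy 1.17.1, numpy 2.4.6 and pandas 2.3.3, and plots were drawn with matplotlib 3.10.9. The fit was tested on simulated data. Read totals were not used, so precision is the SD between pools.

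The members and gene lists were chosen with earlier results of these data known. All members are named, and of each list the called genes, or those with the lowest adjusted p up to 3. Not every gene of these pathways is reported here. Positions are those of RefSeq for Sscrofa11.1, matched by gene ID for 9 of 9 rows.

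The numbers of the pools were read as a pairing: both states are the same animals, and deviations of same-numbered pools from their group means correlated at 0.16, 0.35, 0.32 and 0.25. Alternatives were other pseudocounts, filters and scalings, no trend, a limit of 0.05, the pool number as a block and each library left out.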

Additional observations from a re-analysis of the deposited data

Results flagged for a closer look

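Dixon's test at the 95% level was applied to the FPKM of the 8 members and LOC100625049 in both states, and 7 of 18 groups of 4 pools held a value far from the other 3, where chance gives about 1 in 20. Steatosis pool 1 was the high value in 5 of them, at 15.89 FPKM for ACAT2, 20.54 FPKM for HMGCS1, 11.45 FPKM for MVD, 61.95 FPKM for LOC100625049 and 46.18 FPKM for FDPS. In the initial state the low value of ACAT2 in pool 3, 16.54 FPKM, and the high value of MVD in pool 2, 14.88 FPKM, stood apart. These flags share libraries and are not independent of each other.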

How the results depend on the processing

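The count of 4 members called lower depended most on which libraries entered. It ran from 1 to 5 as single libraries were left out, being 5 without steatosis pool 1, 3 without initial pool 3, 2 without initial pool 1 (MVK and FDPS) and 1 without initial pool 2 or 4 or steatosis pool 2, 3 or 4 (MVK). The calls lost in these fits had adjusted p values from 0.0105 to 0.0286 and kept their direction. The count was 2 with no filter on low values and 2 with no trend (MVK and FDPS both times), and 5 without pool 1 of both states, an alternative chosen after seeing the data. MVK was called under all 19 alternatives. The main fit and the fits that left out a library did not use the pool number. With the replicate block, the pool number, 4 members were called and 842 genes in all, and the block changed no other call of the 9 genes. Among the called genes the adjusted p fell to 0.00276 for ACAT2, 0.00663 for HMGCS1, 0.00357 for FDPS and 0.00293 for LOC100625049. For MVK it rose to 0.00606. GGPS1 reversed to -0.10 with median-ratio scaling and -0.07 with upper-quartile scaling. Under these scalings LOC100625049 was not called (adjusted p = 0.0105 and 0.0106). Over all genes, 836 differed, 94.7% of them higher. The number was 434 with a pseudocount of 1, 494 with median-ratio scaling (83.2% higher) and 512 with upper-quartile scaling (85.7% higher), and 651 to 818 with a library left out. Median-ratio scaling brought the median of all genes to -0.01 and that of the members to -1.53. A planned search for sterol regulatory elements in promoters was not run, since no promoter sequences were used here. Depth behind single FPKM values is unknown.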
